A study of Medicago ruthenica with 9 samples.

Results

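The comparison described here set leaves of rewatered plants (RW) against leaves of plants that were never stressed (CK) in Medicago ruthenica, a perennial forage legume, and covered 6 of the 9 RNA sequencing libraries, 3 of each group. RW plants were 4 weeks old when treatment began, went 15 days without water and were harvested 2 days after the pots were rewatered to saturation. CK plants of the same age were watered throughout and were harvested on day 15, so the RW leaves were collected later and the age of the plants cannot be told apart from rewatering. The 3 libraries of drought-stressed plants (DS), harvested after 15 days without water, entered the same fit and its shared estimate of error. Apart from a count of unigenes that differed between DS and CK, their values are given side by side. DS vs. CK shares the CK libraries with RW vs. CK. The labels call the replicates biological without saying which plants or pots each came from. The p-values therefore reflect library-to-library spread, which may be partly technical.

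Of 52457 unigenes, the longest transcripts of the clusters of a de novo assembly, 44538 reached 1 TPM (a read abundance divided by transcript length and scaled to a common library total) in at least 3 of the 9 libraries and were tested, and 28973 of these had a protein description. The remaining 7919 were not tested. TPM summed to nearly the same total in every library. Read totals per library stand in the study's supplement, but the table used here holds no reads per unigene, so no counting interval can be given. Unigenes are named by the symbol of the closest SwissProt entry, with the assembly identifier. Marker transcripts of leaf mesophyll were abundant, with summed levels of 66650 to 90746 TPM in RW and 76506 to 103130 TPM in CK over 41 unigenes. RW replicate 2 stood apart from every other library: 3618 unigenes were at 5 TPM or more there and under 0.5 TPM in each of the other 8, against 31 to 55 in the other RW libraries and 43 to 166 in CK. None of the 3618 passed the filter, but the levels of the tested unigenes in RW replicate 2 are relative to a total that includes them, and values without that library are given beside the results. In bulk leaf RNA, fewer cells of a type and less RNA per cell cannot be told apart.

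When soil dries, plants make abscisic acid, close their stomata, slow growth and accumulate protective proteins and solutes. On rewatering most of this response is switched off within hours to days, photosynthesis and growth resume, and the transcripts that stay displaced form a residue of the dry spell. Iron storage proteins, chaperones, defence peptides and wall enzymes are among the genes known to respond to such changes in water status.

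Little of the transcriptome differed between RW and CK by the test. A unigene was called a DEG at a Benjamini-Hochberg adjusted p under 0.05 by limma with a log2 fold change beyond 1, on log2(TPM + 1). One unigene met this rule, which is 0.00225% of those tested, and it was lower in RW. No unigene was called higher in RW. At an unadjusted p under 0.05 with the same fold, 1934 unigenes differed (4.34% of those tested), 866 higher in RW (1.94%) and 1068 lower (2.4%). Without RW replicate 2 these counts were 1072 (2.41%) and 699 (1.57%), and 517 of the higher and 505 of the lower unigenes were shared by both fits. All 3 RW libraries lay above all 3 CK libraries for 5.35% of unigenes and below them for 6.44%. RW replicates 1 and 3 alone lay above all CK libraries for 11.4% and below them for 10.2%. Complete separation is easier to reach with fewer libraries, so these shares cannot be compared with those of all 3 RW libraries. In the same fit, DS vs. CK gave 2209 DEGs, or 4.96% of those tested. The quartiles of the log2 fold changes of RW vs. CK ran from -0.33 to 0.28 with a median of -0.02, and the 95% interval of a single unigene had a median reach of 0.96 to either side.

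**Figure D1:**
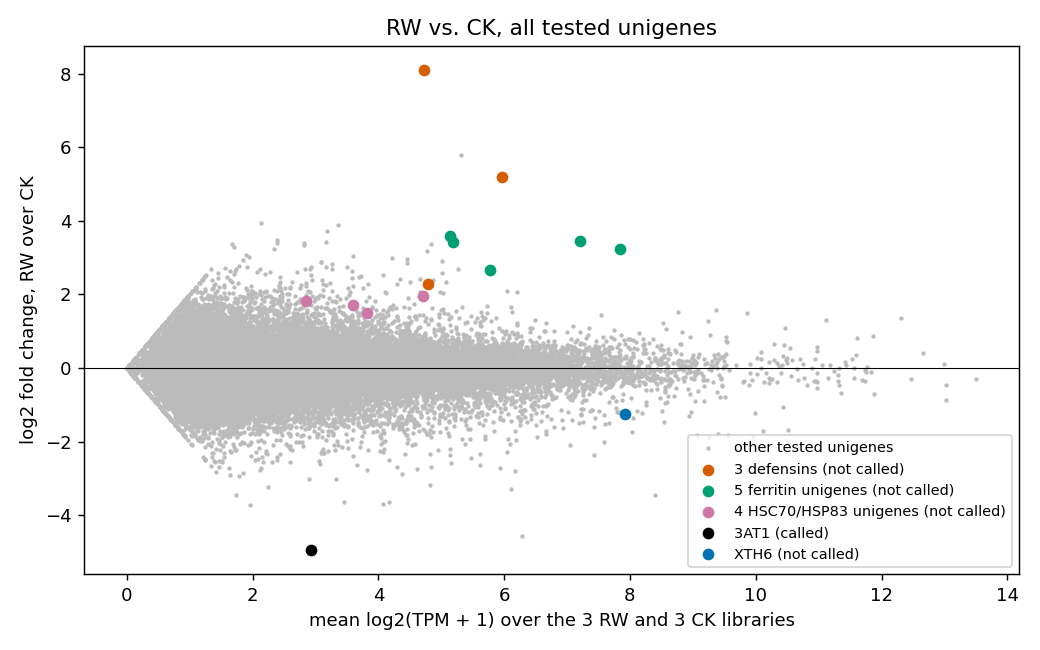
Log2 fold change of RW over CK (vertical axis) against the mean log2(TPM + 1) of the 3 RW and 3 CK libraries (horizontal axis) for all tested unigenes, 1 point each. The black point, 3AT1 at -4.95, is the DEG, and coloured points mark unigenes described in the text that were not called.

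The DEG was an acyltransferase transcript. The unigene 3AT1 (DN23805_c0_g4, 1584 bp) is described as a putative transferase of Medicago truncatula, and its closest SwissProt entry is an Arabidopsis enzyme that attaches a coumaroyl group to anthocyanins, the red and blue flavonoid pigments. It was at 0.00, 0.94 and 0.32 TPM in RW replicates 1 to 3, against 37.1, 53.3 and 35.8 TPM in CK. Every RW library was thus near 0 and every CK library well above it. 3AT1 fell by 4.95 on the log2 scale (SE 0.34, adjusted p = 0.00302, limma, n = 3 each), and without RW replicate 2 by 5.20 (adjusted p = 0.00518). It was as low in DS, at 0.72, 0.49 and 0.57 TPM. At 2 days after rewatering its level was thus near that of DS and far below that of CK. No library was taken before drying. An acyltransferase assembled in the same Trinity component, SHT (DN23805_c0_g1, described as a spermidine hydroxycinnamoyl transferase), was at 4.63, 5.28 and 2.17 TPM in RW, against 9.35, 4.09 and 11.2 TPM in CK, and was not called. Reads shared between unigenes of 1 component cannot be separated in TPM. With 24 tested unigenes, the acyltransferases of anthocyanins and related glucosides as a list, drawn up after the values were seen, had a median log2 fold change of -0.08 (-0.01 without RW replicate 2), beside -0.02 over all tested unigenes.

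All other unigenes named below were not called in this comparison, and those outside the naming rule were chosen after their values were seen. Their values are given as a description.

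Ferritins, which store iron in plastids in a form that does not generate radicals, were on the higher side in RW. Of 7 tested plant ferritin unigenes, a list drawn up after the values were seen, 6 had all 3 RW libraries above all 3 CK libraries. Over all tested unigenes that share was 5.35%. The median log2 fold change of the 7 was 3.24 (3.15 without RW replicate 2). The most abundant (DN23595_c0_g1, closest to an alfalfa ferritin) was at 1077, 709 and 457 TPM in RW, against 76.0, 33.3 and 155 TPM in CK. The log2 fold change was 3.24 (SE 0.63, adjusted p = 0.495 by limma). A second (DN22294_c0_g3) was at 721, 493 and 319 TPM in RW and at 14.7, 28.9 and 188 TPM in CK, with a log2 fold change of 3.44 (3.43 without RW replicate 2). In both, CK replicate 3 was the highest CK library and the spread within CK was wide.

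The 5 ferritin unigenes of 2 Trinity components may share reads, and were therefore also summed. The sum was 2367, 1588 and 1056 TPM in RW, against 134, 89.1 and 408 TPM in CK, a ratio of 7.95 between the means (8.14 without RW replicate 2). No test was made on this sum, since its members were picked with their separation known. In DS the same sum was 77.4, 268 and 50.1 TPM. The DS and CK ranges of this sum overlapped. PFE2 (DN22246_c0_g1), a ferritin most alike to one of cowpea, was at 922, 935 and 1111 TPM in RW, against 867, 423 and 450 TPM in CK and 154, 209 and 80.5 TPM in DS, with a log2 fold change of 0.84 (SE 0.38) for RW vs. CK and 0.88 without RW replicate 2.

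Vacuolar iron transporter homologs, which move iron into the vacuole, were on the same side. The homolog DN12143_c0_g1 was at 6.43, 10.1 and 5.66 TPM in RW and at 1.01, 0.86 and 0.86 TPM in CK, with a log2 fold change of 2.10 (SE 0.38, adjusted p = 0.495 by limma; 1.88 without RW replicate 2). DN11033_c0_g1 and DN16182_c0_g1 were also higher in every RW library than in any CK library. Over the list of ferritins and iron homeostasis, 7 of 23 tested unigenes were higher at an unadjusted p and 0 were lower, against backgrounds of 1.94% and 2.4%, and the median was 0.61 (0.50 without RW replicate 2, -0.41 for DS vs. CK). Of the 7 plant ferritins, 5 were higher by the same rule. The count of the iron list therefore largely repeats unigenes described above, some of which may share reads.

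Defensins, small cysteine-rich antimicrobial peptides, included the largest increase among described unigenes. DN19130_c0_g1, closest to a defensin of Arachis diogoi, was at 329, 761 and 331 TPM in RW, against 0.61, 0.79 and 0.40 TPM in CK. The DS libraries were at 18.1, 258 and 0.14 TPM, and this wide spread enters the estimate of error shared by all 9 libraries. The log2 fold change was 8.10 (95% interval 4.75 to 11.46, adjusted p = 0.495 by limma), and 7.70 without RW replicate 2. In a fit of the 6 RW and CK libraries alone this defensin was called, with an adjusted p of 0.00198. PI39 (DN19852_c0_g1) was at 511, 384 and 271 TPM in RW and at 2.22, 31.9 and 9.22 TPM in CK, with a log2 fold change of 5.20 (5.18 without RW replicate 2). The defensin unigene DN19130_c0_g2 was at 42.6, 123 and 41.8 TPM in RW and at 3.57, 15.9 and 24.7 TPM in CK, with a log2 fold change of 2.29 (1.78 without RW replicate 2). These 3 had no overlap between the groups, and DN19130_c0_g1 and DN19130_c0_g2 belong to 1 Trinity component and may share reads. Over all tested unigenes, 5.35% lay entirely above CK. The median over all 9 tested defensins, a list drawn up after the values were seen, was 0.06 (-0.16 without RW replicate 2).

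**Figure D2:**
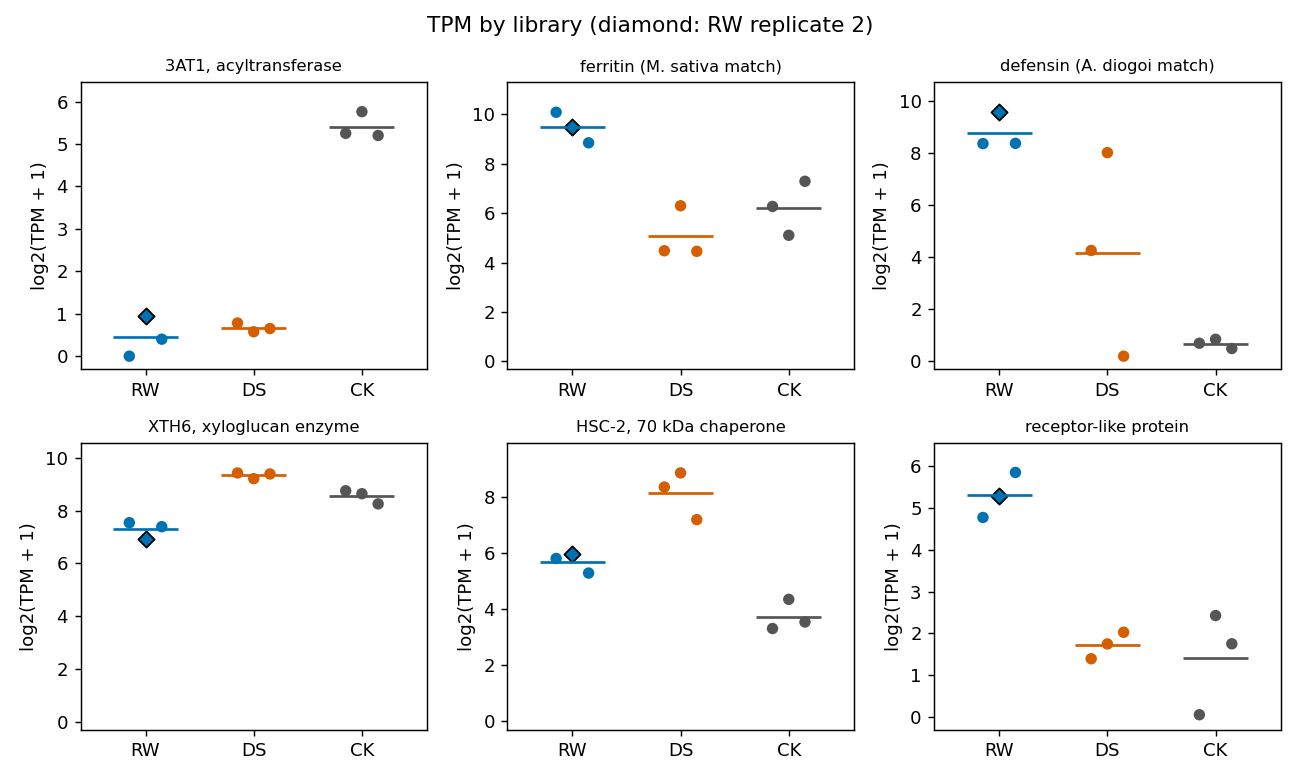
Log2(TPM + 1) of 6 unigenes in each library of RW, DS and CK, with horizontal lines at group means and RW replicate 2 as a diamond. 3AT1 is near 0 in RW and DS, and the ferritin, the defensin, HSC-2 and the receptor-like protein are higher in every RW library than in any CK library.

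A few unigenes of the 70 and 83 kDa chaperone families, which refold damaged proteins, lay between their DS and CK levels. HSC-2 (DN24825_c0_g1) was at 55.2, 61.4 and 38.1 TPM in RW, against 8.92, 19.4 and 10.7 TPM in CK, with 328, 466 and 146 TPM in DS. The log2 fold change of RW vs. CK was 1.95 (SE 0.43, adjusted p = 0.628 by limma) and 1.82 without RW replicate 2, and the groups did not overlap. MED37C (DN21411_c0_g1) was at 20.2, 34.0 and 13.3 TPM in RW and at 4.67, 8.07 and 4.93 TPM in CK, with a log2 fold change of 1.71 (1.37 without RW replicate 2). HSP83A (DN23804_c0_g2) was at 14.9, 21.3 and 5.91 TPM in RW and at 2.70, 2.35 and 3.58 TPM in CK, with a log2 fold change of 1.81 (1.45 without RW replicate 2). The medians of the families did not move in this way. Over 103 tested 70 kDa heat shock cognates, a list drawn up after the values were seen, the median was -0.05 (0.03 without RW replicate 2), and their summed level was 4321, 2695 and 3060 TPM in RW, against 4094, 3810 and 2859 TPM in CK. Of the 103, 5 were higher and 2 lower at an unadjusted p (9 and 2 without RW replicate 2). Of 193 tested heat shock proteins and factors, 10 were higher and 2 lower at an unadjusted p, with and without RW replicate 2. Over all tested unigenes, 1.94% were higher and 2.4% lower, or 2.41% and 1.57% without that library. The median of these heat shock proteins and factors was 0.06 (0.10 without RW replicate 2). Of the 193, 23 had every RW library above every CK library and 6 below, against 5.35% and 6.44% of all tested unigenes.

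Antioxidant enzymes differed little but evenly. Of 43 tested unigenes, 8 had every RW library above every CK library and 0 had every RW library below, against backgrounds of 5.35% and 6.44%, and the median log2 fold change was 0.20 (0.16 without RW replicate 2). None passed the unadjusted rule. Catalase CAT4 (DN23678_c0_g1), which breaks down hydrogen peroxide, was at 983, 920 and 968 TPM in RW and at 728, 415 and 651 TPM in CK. Its log2 fold change was 0.72 (SE 0.23), and 0.74 without RW replicate 2.

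Transcripts for walls and the leaf surface were on the lower side. XTH6 (DN19618_c0_g2), which cuts and rejoins xyloglucan in the wall, was at 185, 122 and 167 TPM in RW, against 430, 398 and 304 TPM in CK and 687, 591 and 669 TPM in DS. RW was thus the lowest of the 3 groups. The log2 fold change of RW vs. CK was -1.26 (SE 0.22, adjusted p = 0.495 by limma), and without RW replicate 2 it was -1.08. A GDP-mannose epimerase (DN14661_c0_g4), on the route to ascorbate and wall sugars, was at 118, 78.7 and 93.7 TPM in RW and at 236, 309 and 171 TPM in CK, with a log2 fold change of -1.27 (-1.13 without RW replicate 2). CER3 (DN25149_c0_g1), which acts in the synthesis of wax alkanes, was at 40.4, 40.6 and 98.3 TPM in RW and at 148, 179 and 89.7 TPM in CK, so that RW replicate 3 overlapped the control range. Its log2 fold change was -1.27 (-1.07 without RW replicate 2). KCS2 (DN19258_c0_g1), which elongates very-long-chain fatty acids, was at 36.6, 25.2 and 37.9 TPM in RW, against 56.8, 69.2 and 64.7 TPM in CK and 240, 169 and 116 TPM in DS, with a log2 fold change of -0.93 for RW vs. CK (-0.75 without RW replicate 2).

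As lists, the wall and surface genes had medians below that of all tested unigenes. Over all tested unigenes, 1.94% were higher and 2.4% lower at an unadjusted p, or 2.41% and 1.57% without RW replicate 2. For 77 expansins and xyloglucan enzymes the median was -0.25, with 0 higher and 10 lower. Without RW replicate 2 it was -0.32, with 2 higher and 4 lower. For 128 pectin-modifying enzymes the median was -0.36, with 2 higher and 9 lower (-0.27, with 2 and 8, without RW replicate 2). For 129 cuticle and wax genes it was -0.33, with 1 higher and 5 lower (-0.25, with 0 and 5, without RW replicate 2). These medians leaned on CK replicate 2. Without it they were -0.11 for the expansins and xyloglucan enzymes, -0.11 for the pectin-modifying enzymes and -0.20 for the cuticle and wax genes. Without RW replicate 1 the pectin median was -0.55, and without RW replicate 3 the expansin median was -0.17. Of the cuticle and wax genes, 15 had every RW library below every CK library and 0 above, against 6.44% and 5.35% of all tested unigenes. Polygalacturonase non-catalytic subunits, proteins of the pectin matrix, were a list drawn up after the values were seen. The 3 tested unigenes had a median of -2.19 (-2.10 without RW replicate 2, -1.33 without RW replicate 3). Each was lower in every RW library than in any CK library. Among them, DN25861_c0_g5 and DN25861_c0_g1 belong to the same Trinity component and may share reads. GP1 (DN25861_c0_g5), for example, was at 36.7, 2.97 and 4.82 TPM in RW and at 37.3, 79.4 and 82.0 TPM in CK, with RW replicate 1 just under the lowest control.

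The list of laccases, secondary wall and xylem genes had the lowest median of the lists fixed for this comparison, at -0.92 (-0.84 without RW replicate 2, -1.55 for DS vs. CK). At an unadjusted p, 4 of 74 tested members were higher and 15 lower, against 1.94% and 2.4% of all tested unigenes. Without RW replicate 2 the counts were 3 and 1, against 2.41% and 1.57%. The median was -0.65 without CK replicate 2. IRX12 (DN13025_c0_g4), a laccase of lignin formation, was at 70.8, 16.0 and 32.1 TPM in RW and at 76.5, 201 and 144 TPM in CK. The groups did not overlap, but RW replicate 1 and CK replicate 1 were close to each other. The log2 fold change was -1.94 (-1.43 without RW replicate 2). Xylem markers as a whole summed to 823, 258 and 323 TPM in RW and to 620, 1988 and 1539 TPM in CK over 31 unigenes, all of them at 1 TPM or more in some RW or CK library. These markers overlap the list in members and move with it, and the part of vein tissue in the difference was not tested.

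**Figure D3:**
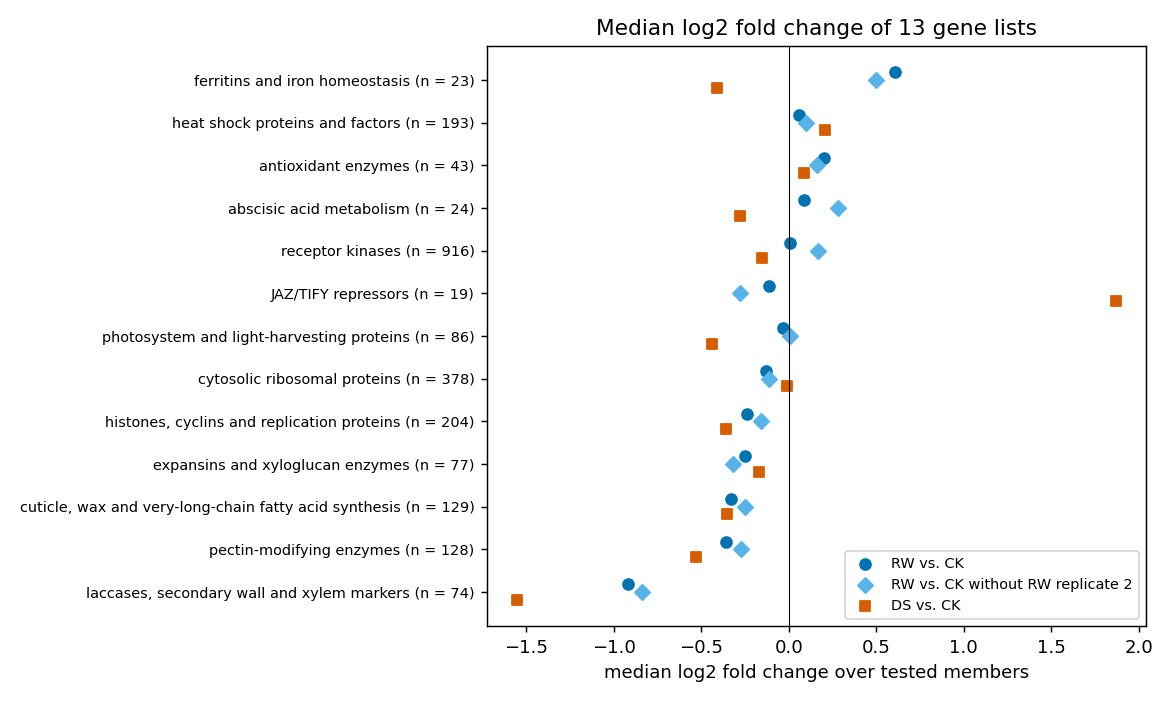
Median log2 fold change over the tested members of 13 gene lists for RW vs. CK (circles), RW vs. CK without RW replicate 2 (diamonds) and DS vs. CK (squares). The iron list lies at 0.61 and the secondary wall list at -0.92 in RW vs. CK, and the other lists lie between -0.36 and 0.20.

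Some cysteine-rich receptor kinases, a plant family of cell surface kinases linked to defence and oxidative signals, were high in RW replicates 1 and 3 and lower in replicate 2. CRK10 (DN26285_c1_g1) was at 163, 41.9 and 134 TPM in RW and at 18.1, 19.1 and 8.16 TPM in CK. CRK26 (DN23355_c0_g1) was at 127, 11.95 and 86.2 TPM in RW and at 7.43, 7.60 and 2.94 TPM in CK. A second CRK10 unigene (DN18031_c0_g3) was at 66.4, 4.61 and 72.4 TPM in RW and at 10.2, 4.99 and 1.47 TPM in CK, so that RW replicate 2 fell within the control range. The log2 fold change of CRK26 was 2.99 with all libraries and 4.00 without RW replicate 2, and neither fit called it. The list of cysteine-rich receptor kinases was drawn up after the values were seen. Of its 91 tested members, 4 were higher and 4 lower at an unadjusted p with all libraries. Without RW replicate 2, 14 were higher and 1 lower. Over all tested unigenes the shares moved the same way, with 1.94% higher and 2.4% lower, against 2.41% and 1.57% without that library. Over 916 receptor kinases of all kinds the counts were 31 and 29, against 59 and 17. The summed level of these kinases was 16772, 9718 and 15926 TPM in RW and 10994, 15017 and 11959 TPM in CK, so RW replicate 2 was the lowest library.

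For 4 unigenes of receptors and peptide signals, chosen after their values were seen, the fold change hardly moved without that library. A receptor-like protein (DN16319_c0_g1) was at 26.3, 38.2 and 56.6 TPM in RW and at 0.04, 4.38 and 2.37 TPM in CK, with a log2 fold change of 3.89 (SE 0.56, adjusted p = 0.495 by limma; 3.90 without RW replicate 2). SERK1 (DN19741_c0_g1), whose Arabidopsis namesake is a coreceptor, was at 34.3, 24.6 and 31.1 TPM in RW and at 11.99, 16.6 and 14.1 TPM in CK, with a log2 fold change of 1.02 (1.16 without RW replicate 2). In the other direction, SIRK (DN21640_c0_g2), named for a senescence-induced receptor kinase, was at 0.01, 0.01 and 0.00 TPM in RW and at 3.47, 25.7 and 10.2 TPM in CK, a log2 fold change of -3.45 in both fits. A phytosulfokine precursor (PSK, DN12285_c0_g1), the source of a peptide growth signal, was at 0.08, 0.41 and 0.57 TPM in RW and at 15.5, 3.03 and 12.6 TPM in CK, with a log2 fold change of -2.85 (-2.89 without RW replicate 2).

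In 3 abscisic acid metabolism unigenes, chosen after their values were seen, RW replicate 2 was instead the high library. NCED1 (DN24976_c0_g1), which catalyses the limiting step of abscisic acid synthesis, was at 12.1, 46.0 and 9.42 TPM in RW, against 6.25, 7.90 and 7.49 TPM in CK and 135, 210 and 101 TPM in DS. CYP707A2 (DN23969_c0_g1), which breaks the hormone down, was at 11.6, 44.5 and 16.1 TPM in RW and at 7.13, 7.56 and 9.18 TPM in CK. CYP707A3 (DN20125_c1_g1), of the same function, was at 2.80, 9.65 and 2.23 TPM in RW, against 1.61, 0.34 and 2.74 TPM in CK and 84.5, 139 and 133 TPM in DS. Without RW replicate 2 the log2 fold changes were 0.52 for NCED1, 0.72 for CYP707A2 and 0.57 for CYP707A3, against 1.18, 1.27 and 1.11 with it. Of 24 tested abscisic acid metabolism unigenes, 5 were higher at an unadjusted p with all libraries and 0 without RW replicate 2, against 1.94% and 2.41% of all tested unigenes. The list as a whole did not follow these members. Its median was 0.09, and 0.28 without RW replicate 2, and its summed level was 783, 952 and 959 TPM in RW, against 862, 653 and 811 TPM in CK. An early light-induced protein (DN14766_c1_g1), a pigment-binding protein of stressed chloroplasts, was likewise at 18.1, 594 and 67.9 TPM in RW and at 5.16, 15.3 and 6.20 TPM in CK. The 4 tested early light-induced proteins, a list drawn up after the values were seen, had a median of 2.30 (1.61 without RW replicate 2).

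**Figure D4:**
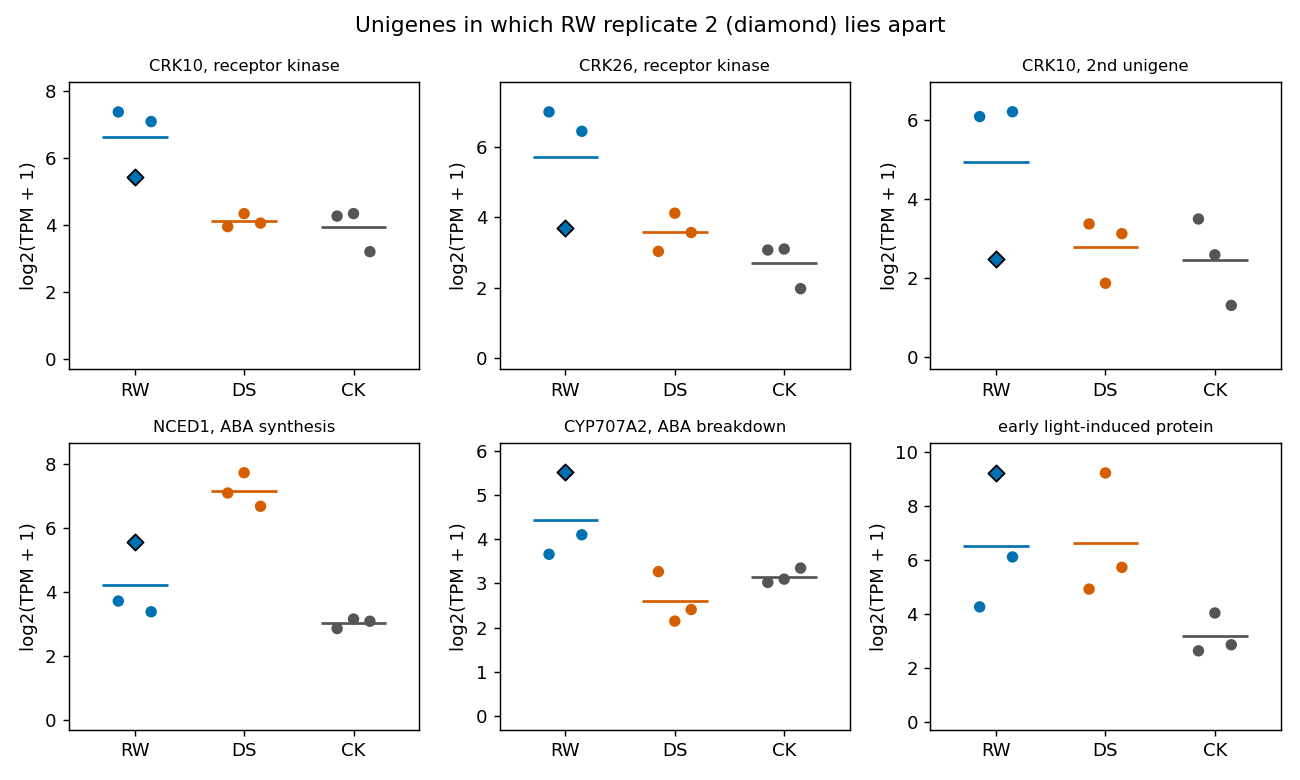
Log2(TPM + 1) by library in RW, DS and CK for 3 receptor kinase unigenes and for NCED1, CYP707A2 and an early light-induced protein, with lines at group means. RW replicate 2 (diamond) is the lowest RW library for the kinases and the highest for the other 3 unigenes.

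Several transcripts with large DS vs. CK differences were nearer their CK level than their DS level in RW. They are among those chosen for PCR or listed in pathways by the study. TIFY10A (DN16559_c0_g6), a repressor of jasmonate signalling, was at 59.4, 51.6 and 44.7 TPM in RW, against 61.2, 106 and 73.7 TPM in CK and 1345, 1238 and 867 TPM in DS. Its RW libraries lay below all CK libraries, with a log2 fold change of -0.59 with and without RW replicate 2. PUMP5 (DN21990_c1_g1), a mitochondrial carrier, was at 231, 218 and 234 TPM in RW, against 195, 150 and 158 TPM in CK and 1465, 1738 and 1884 TPM in DS. The RW libraries of PUMP5 still lay above all CK libraries, with a log2 fold change of 0.45 (SE 0.19), and 0.48 without RW replicate 2. SRK2E (DN19936_c0_g1), a kinase of abscisic acid signalling, was at 74.5, 87.8 and 93.2 TPM in RW, against 67.3, 90.3 and 88.9 TPM in CK and 6.80, 8.03 and 9.21 TPM in DS.

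Of these unigenes, WRKY53 and a protein phosphatase 2C were above CK and below DS in RW. WRKY53 (DN22281_c0_g1), a transcription factor of stress and senescence, was at 24.4, 19.4 and 15.2 TPM in RW, against 4.92, 9.58 and 9.68 TPM in CK and 295, 483 and 327 TPM in DS. Its log2 fold change was 1.22 (SE 0.30; 1.21 without RW replicate 2) for RW vs. CK and 5.37 for DS vs. CK. The protein phosphatase 2C At2g30020 (DN22423_c0_g2) was at 31.2, 41.9 and 26.3 TPM in RW, against 15.4, 15.8 and 17.6 TPM in CK and 410, 519 and 331 TPM in DS. Neither overlapped the CK range. SAPK2 (DN16118_c0_g1), a kinase related to SRK2E, was at 27.9, 57.2 and 53.3 TPM in RW, against 33.7, 26.8 and 18.3 TPM in CK, and its groups overlapped.

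**Figure D5:**
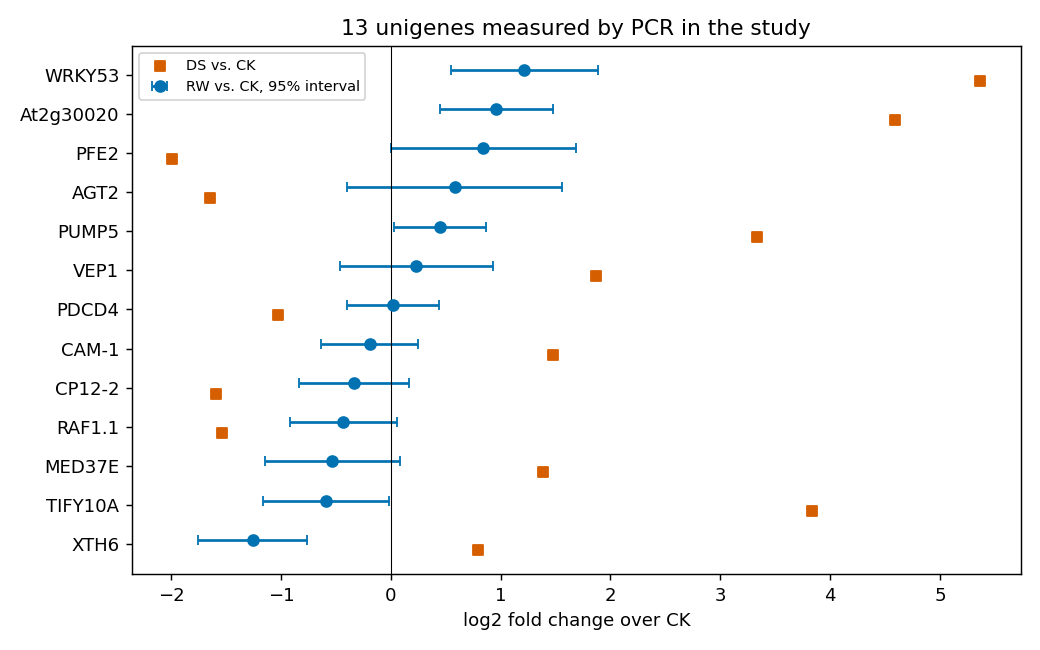
Log2 fold change over CK of 13 unigenes that were also chosen for PCR, with RW vs. CK as circles with 95% intervals and DS vs. CK as squares. WRKY53, at 1.22, is the highest and XTH6, at -1.26, the lowest in RW vs. CK.

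For 86 photosystem and light-harvesting proteins the median log2 fold change was -0.03 (0.01 without RW replicate 2) with 0 higher and 1 lower at an unadjusted p, and for 40 Calvin cycle unigenes 0.10 (0.08) with 0 in either direction, against 1.94% higher and 2.4% lower of all tested unigenes. CP12-2 (DN21723_c1_g3), a regulator of that cycle, was at 474, 613 and 474 TPM in RW, against 592, 640 and 729 TPM in CK and 255, 163 and 238 TPM in DS. For 19 JAZ/TIFY repressors the median was -0.11 (-0.28 without RW replicate 2), beside 1.87 for DS vs. CK. Of the 19, 4 had every RW library below every CK library and 0 above, against 6.44% and 5.35% of all tested unigenes. Their summed level was 620, 715 and 620 TPM in RW, against 931, 1028 and 808 TPM in CK. Other hormone lists ranged in median from -0.27 for 9 abscisic acid receptors and -0.23 for 34 gibberellin genes to 0.35 for 9 strigolactone and carotenoid cleavage genes. Without RW replicate 2 these medians were -0.09, -0.16 and 0.24. The strigolactone and carotenoid cleavage median was -0.06 without CK replicate 1, and the gibberellin median was -0.08 without RW replicate 3. These 3 lists each had at most 1 member in either direction at an unadjusted p. Of 48 cytokinin genes, 0 were higher and 5 lower (0 and 2 without RW replicate 2). Of 224 auxin response genes, 4 were higher and 10 lower (4 and 2 without RW replicate 2). Without that library the shares of all tested unigenes were 2.41% and 1.57%. For 204 histones, cyclins and replication proteins it was -0.24 (-0.16 without RW replicate 2, -0.14 without CK replicate 2), with 22 having every RW library below every CK library and 5 above. For 378 cytosolic ribosomal proteins the median was -0.13 (-0.11 without RW replicate 2, -0.06 without CK replicate 1), with 35 entirely below and 5 entirely above. Of all tested unigenes, 6.44% were entirely below and 5.35% entirely above. Under median-of-ratios scaling the median of all tested unigenes was 0.01.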

How the data were processed

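The authors deposited 1 table of TPM values for 9 leaf libraries with unigene lengths and annotation. Cutadapt trimming, Trinity assembly and Salmon quantification are given in the methods of the study. The submitters' processing notes also name HISAT2 2.0 and StringTie 1.3.0. TPM keeps no read counts, so the count test used by the study could not be run. Unigenes with at least 1 TPM in 3 libraries were fitted as log2(TPM + 1) with limma 3.58.1 (R 4.3.3, trend and robust options), with 3 group means over all 9 libraries and the contrast RW minus CK, two-sided. Adding 1 shrinks the fold change of low unigenes.

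Lists were matched as text in protein descriptions and SwissProt names. The members, lists and named unigenes were chosen with earlier results of these data known. The naming rule took DEGs by size, DEGs per list, the most abundant member of lists without a DEG, and unigenes the study measured by PCR or put in its pathway tables. The text prints a part of these. Lists of cysteine-rich receptor kinases (narrowed once to drop other kinases), 70 kDa heat shock cognates, defensins, plant ferritins, early light-induced proteins, polygalacturonase subunits and acyltransferases were added after the values were seen. Ferritins closest to human entries were left out. Steps were tested on simulated data. Alternatives were other pseudocounts, filters, scalings, weights and thresholds, pooled unigenes, a replicate block and each library left out.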

Additional observations from a re-analysis of the deposited data

Results flagged for a closer look

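Unigenes that were not tested carried 6.54% of the summed TPM of RW replicate 2, against 0.473% and 0.386% in RW replicates 1 and 3 and 0.411% to 0.606% in CK. This drew attention because the signal lies outside the unigenes that RW vs. CK used and above its level in the control libraries. The 3618 unigenes at 5 TPM or more in that library alone carried 5.23% of its TPM, against 0.0506% to 0.182% for such unigenes in the CK libraries. Of the 3618, 1458 were described by a Medicago protein, 327 by a protein of another legume, 48 by one of another land plant and 1785 had no description naming a species. Their median length was 295 bp, against 497 bp over all unigenes. Of the 1833 with a species, 892 carried the same description as a unigene at 1 TPM or more in all 9 libraries. The origin of these unigenes was not tested.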

How the results depend on the processing

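3AT1 remained a DEG in each setting that tested it, with adjusted p between 0.000891 and 0.0428, except at a pseudocount of 0.1 (adjusted p = 0.146, 0 DEGs). No DEG was found after summing TPM by protein description (0), which pooled 3AT1 with other putative transferases, or keeping 1 unigene per Trinity component (0), which dropped it. The count of DEGs higher in RW was 1 with only the RW and CK libraries, and 0 to 3 when a library was left out: 1 without CK replicate 1, 3 without CK replicate 2 and 1 without CK replicate 3. The count lower in RW was 1 in every such fit. An unadjusted p gave 866 higher and 1068 lower.

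With the replicate number as a block, 0 DEGs were higher and 1 was lower. Same-numbered RW and CK libraries did not deviate together (r = -0.094, -0.08 and 0.008), so the numbers were not taken as pairs. Among the named unigenes, direction turned round only for 2 near 0, with a single library left out. PDCD4 (DN20767_c0_g1) ranged from -0.07 to 0.06 and SRK2E (DN19936_c0_g1) from -0.08 to 0.15. The lack of read counts per unigene and 3 libraries per group limit what could be called, and low unigenes depend most on the pseudocount.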

Other observations

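The unigenes called higher in RW after leaving out a CK library had that library near or above the RW level. A universal stress protein (DN16546_c0_g2) was at 44.7, 64.7 and 65.9 TPM in RW and at 4.53, 3.97 and 46.7 TPM in CK. An uncharacterized protein whose closest SwissProt entry is UBP12 (DN17960_c0_g5) was at 11.97, 10.4 and 7.29 TPM in RW and at 0.00, 19.4 and 0.00 TPM in CK. A nitrate and peptide transporter of the NPF family, NPF2.11 (DN17503_c0_g1), was at 15.4, 21.3 and 33.3 TPM in RW and at 2.50, 4.02 and 1.42 TPM in CK, with a log2 fold change of 2.73 that was not called. A histone H3 unigene (DN14646_c0_g1) was at 27.2, 13.5 and 18.8 TPM in RW and at 53.2, 63.0 and 33.6 TPM in CK, and was not called either.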
